A study of Mus musculus with 24 samples.

Results

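The mRNA of 9 genes was followed across mouse embryonic stem cells (mESCs) that lack single subunits of the ISWI chromatin remodelling complexes: the trophectoderm factors Cdx2, Elf5, Gata3, Tfap2c and Tead4 and the simple keratins Krt7, Krt8, Krt18 and Krt19. They were chosen by symbol and joined to the gene IDs of the count table, where they are 9 of 24594 genes. Of these, 8 passed the filter on low counts and were tested, and Elf5 did not. RNA was sequenced in 24 libraries, 11 of wild-type (WT) cells and 13 of 6 deletion lines, all of 129S6/SvEvTac background, grown with serum and leukemia inhibitory factor and otherwise untreated. Rsf1Δ lacks the RSF subunit Rsf1, WstfΔ the WICH subunit encoded by Baz1b, Tip5Δ the NoRC subunit encoded by Baz2a, Acf1Δ the subunit of ACF and CHRAC encoded by Baz1a, BptfΔ the NURF subunit Bptf, and the libraries labelled Cecr2Δ the CERF subunit Cecr2. Each line is 1 clone made with CRISPR–Cas9, so the deletion and other properties of the clone cannot be told apart. Rsf1Δ and WstfΔ were sequenced with the WT of batch A, Tip5Δ with batch B, BptfΔ with batch C, the libraries labelled Cecr2Δ with batch D and Acf1Δ with batch E. Each group has 2 libraries except WT of batch D and those labelled Cecr2Δ, which have 3.

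Trophectoderm is the outer epithelium of the blastocyst and gives rise to the placenta. In it Tead4, a DNA-binding partner of the Hippo co-activator Yap, acts upstream of the homeobox factor Cdx2 and of Gata3, while the AP-2 factor Tfap2c and the ETS factor Elf5 serve trophoblast stem cells, and Tfap2c is also expressed in mESCs. Simple keratins form filaments from a type II partner (Krt7, Krt8) and a type I partner (Krt18, Krt19). They are products of trophectoderm and also of extraembryonic endoderm, which can arise in mESC cultures. In bulk RNA, fewer cells of a type and less RNA per cell cannot be told apart.

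The libraries held 13.4 to 36.7 M (mega) counts each. The targeted mRNA was lower in Rsf1Δ (log2 fold change -2.26), WstfΔ (-2.40), BptfΔ (-1.97) and Acf1Δ (-1.72), all with an adjusted p under 0.01 by edgeR's quasi-likelihood test. Baz2a mRNA in Tip5Δ was at -0.26 (adjusted p = 0.0533), and the libraries labelled Cecr2Δ held more Cecr2 mRNA than their WT (0.37). A deletion need not lower the mRNA of its gene. The 4 libraries of batch C held 3288 to 4824 CPM (counts scaled to a library total of 1 M) of Rpph1, an RNA without a poly(A) tail, against at most 3.39 CPM elsewhere. The other 5 lines had the same number of members called when batch C was left out.

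All 4 keratins fell in all 6 lines against WT of the same batch, but Krt7 and Krt19 in Tip5Δ and Krt8 in Acf1Δ missed the threshold when certain single libraries were left out. Without a batch term, which compares each line with WT of all batches, further keratin falls missed it, as given in the last section. A gene is said to fall or rise where its adjusted p was under 0.01 against WT of the same batch, and is called a differentially expressed gene (DEG) where it also changed more than 2-fold. Among the 8 tested members, 5 were lower DEGs in Rsf1Δ, where 5.26% of all 15682 tested genes were, and 0 were higher (0.65% of all). In WstfΔ 5 were lower (6.57% of all) and 1 higher (3.87%), and in BptfΔ 5 were lower (8.59%) and 1 higher (5.25%). The libraries labelled Cecr2Δ had 4 lower (2.33%) and 0 higher (0.784%), in Acf1Δ 4 were lower (3.32%) and 0 higher (1.14%), and in Tip5Δ 0 were lower (2.63%) and 0 higher (0.0829%).

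With no minimum fold change, 7 members fell in Rsf1Δ (13.1% of all tested genes) and 0 rose (7.45%). In Tip5Δ 4 fell (6.23%) and 0 rose (2.84%), and those 4 were the keratins. The libraries labelled Cecr2Δ had 5 that fell (8.83%) and 1 that rose (9.52%), and in Acf1Δ 7 fell (16.7%) and 0 rose (15.1%). In WstfΔ 6 fell (18.3%) and 1 rose (16.4%), and in BptfΔ 6 fell (20.2%) and 1 rose (21.4%). The median log2 fold change of the 8 members lay between -2.73 in WstfΔ and -0.58 in Tip5Δ, while that of all tested genes lay between -0.03 and 0.01 in the 6 lines.

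**Figure D1:**
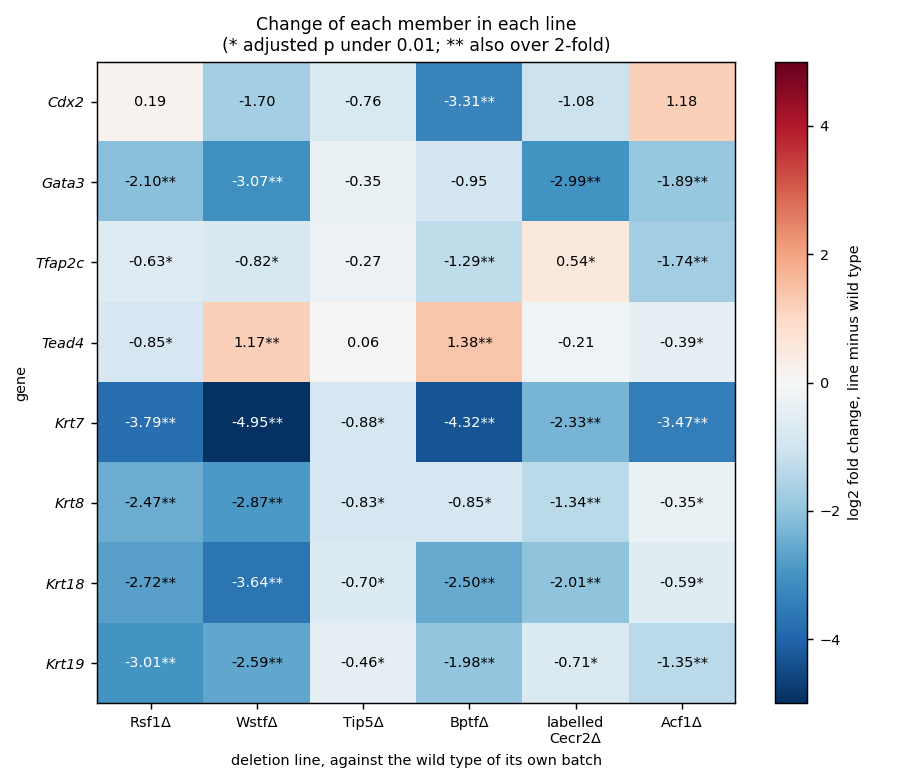
Log2 fold change of the 8 tested members (rows) in each deletion line (columns) against WT of its own batch, with * for an adjusted p under 0.01 and ** for a change that was also over 2-fold. The 4 keratin rows are blue in every column, from -4.95 for Krt7 in WstfΔ to -0.35 for Krt8 in Acf1Δ, while Tfap2c and Tead4 hold both signs.

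Krt8 and Krt18, the commonest partners in simple epithelia, lie next to each other on chromosome 15 of mm10 (Krt8, gene ID 16691, chr15:101996711-102004342; Krt18, gene ID 16668, chr15:102028216-102032026). Krt7 (gene ID 110310) lies on the same chromosome at chr15:101412403-101427806, and Krt19 (gene ID 16669) on chromosome 11 at chr11:100140810-100145926. RefSeq promoter entries (GRCm38.p6) were at hand for 6 of the 9 members. Those of the 3 chromosome 15 keratins are shown because these genes fell in every line, with the exceptions given above. Each sequence is the 250 bases before the RefSeq start, on the gene's strand, with matches to 5 motifs in capitals.
Krt7 (chr15:101412153-101412402, plus strand): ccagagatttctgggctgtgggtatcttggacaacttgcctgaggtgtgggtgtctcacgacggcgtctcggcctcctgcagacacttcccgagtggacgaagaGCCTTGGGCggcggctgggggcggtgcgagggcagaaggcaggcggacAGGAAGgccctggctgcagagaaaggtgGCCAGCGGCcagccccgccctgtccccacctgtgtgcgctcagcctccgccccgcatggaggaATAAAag
Krt8 (chr15:102004343-102004592, minus strand): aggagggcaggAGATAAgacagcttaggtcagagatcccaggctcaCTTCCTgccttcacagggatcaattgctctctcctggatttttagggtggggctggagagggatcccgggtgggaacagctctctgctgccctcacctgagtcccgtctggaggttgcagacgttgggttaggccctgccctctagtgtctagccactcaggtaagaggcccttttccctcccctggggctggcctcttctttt
Krt18 (chr15:102027966-102028215, plus strand): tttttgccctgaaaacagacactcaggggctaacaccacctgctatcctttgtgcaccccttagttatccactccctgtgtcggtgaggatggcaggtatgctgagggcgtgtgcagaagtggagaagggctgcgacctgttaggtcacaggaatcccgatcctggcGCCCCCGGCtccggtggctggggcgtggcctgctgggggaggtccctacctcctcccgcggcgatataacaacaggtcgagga
Each motif was searched on both strands, and matches did not overlap in these 3 windows. The letters GCCNNNGGC, bound by AP-2 factors such as Tfap2c, matched at 2 places in Krt7 and 1 in Krt18, and 13.7% of 32851 promoter windows of this length held a match. The letters of TEAD factors, GGAATG, were found in none of the 3 windows and in 12.6% of all. Krt7 held 1 match to TTTAT, a core of Cdx2 sites, as did 37.3% of windows. Krt8 held 1 match to AGATAA, a core of sites of Gata factors, as did 9.99% of windows. Both Krt7 and Krt8 held 1 match to AGGAAG, a core of ETS sites, as did 29.5% of windows. These are matches of letters only, and binding was not measured here.

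Krt8 was at 183 and 181 CPM in WT of batch A, at 33.1 and 32.5 in Rsf1Δ and at 26.4 and 23.2 in WstfΔ. It was at 149 and 142 in WT of batch B against 77.3 and 86.3 in Tip5Δ, and at 63.4 and 60.5 in WT of batch C against 32.7 and 36.1 in BptfΔ. It was at 44.7, 35.9 and 43.3 in WT of batch D against 17.0, 16.6 and 15.3 in the libraries labelled Cecr2Δ, and at 104 and 97.6 in WT of batch E against 80.8 and 77.4 in Acf1Δ. Every deletion library thus lay below every WT library of its batch, but both Acf1Δ libraries and both Tip5Δ libraries lay above WT of batches C and D. The log2 fold change was -2.87 ± 0.093 (SE) in WstfΔ, -2.47 ± 0.086 in Rsf1Δ and -1.34 ± 0.074 in the libraries labelled Cecr2Δ. It was smaller in BptfΔ (-0.85 ± 0.091), Tip5Δ (-0.83 ± 0.080) and Acf1Δ (-0.35 ± 0.080), where the fall was under 2-fold. In Acf1Δ it missed the threshold without replicate 1 of WT in batch E (-0.30, adjusted p = 0.0174, edgeR), without replicate 2 of Acf1Δ (-0.31, adjusted p = 0.0126) and when fitted with its own WT only (-0.33, adjusted p = 0.0335).

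Krt18 was at 196 and 190 CPM in WT of batch A, at 29.5 and 29.1 in Rsf1Δ and at 14.4 and 16.5 in WstfΔ. It was at 149 and 146 in WT of batch B against 86.6 and 94.7 in Tip5Δ, and at 63.1 and 68.0 in WT of batch C against 11.3 and 11.8 in BptfΔ. It was at 46.7, 37.1 and 49.0 in WT of batch D against 10.1, 11.6 and 11.2 in the libraries labelled Cecr2Δ, and at 100 and 94.6 in WT of batch E against 64.2 and 65.3 in Acf1Δ. The groups did not overlap in any batch, which with so few libraries a group says little by itself. Krt18 fell by 3.64 ± 0.11 (SE) on the log2 scale in WstfΔ, by 2.72 ± 0.093 in Rsf1Δ, by 2.50 ± 0.11 in BptfΔ and by 2.01 ± 0.082 in the libraries labelled Cecr2Δ. It fell by 0.70 ± 0.085 in Tip5Δ and by 0.59 ± 0.087 in Acf1Δ.

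**Figure D2:**
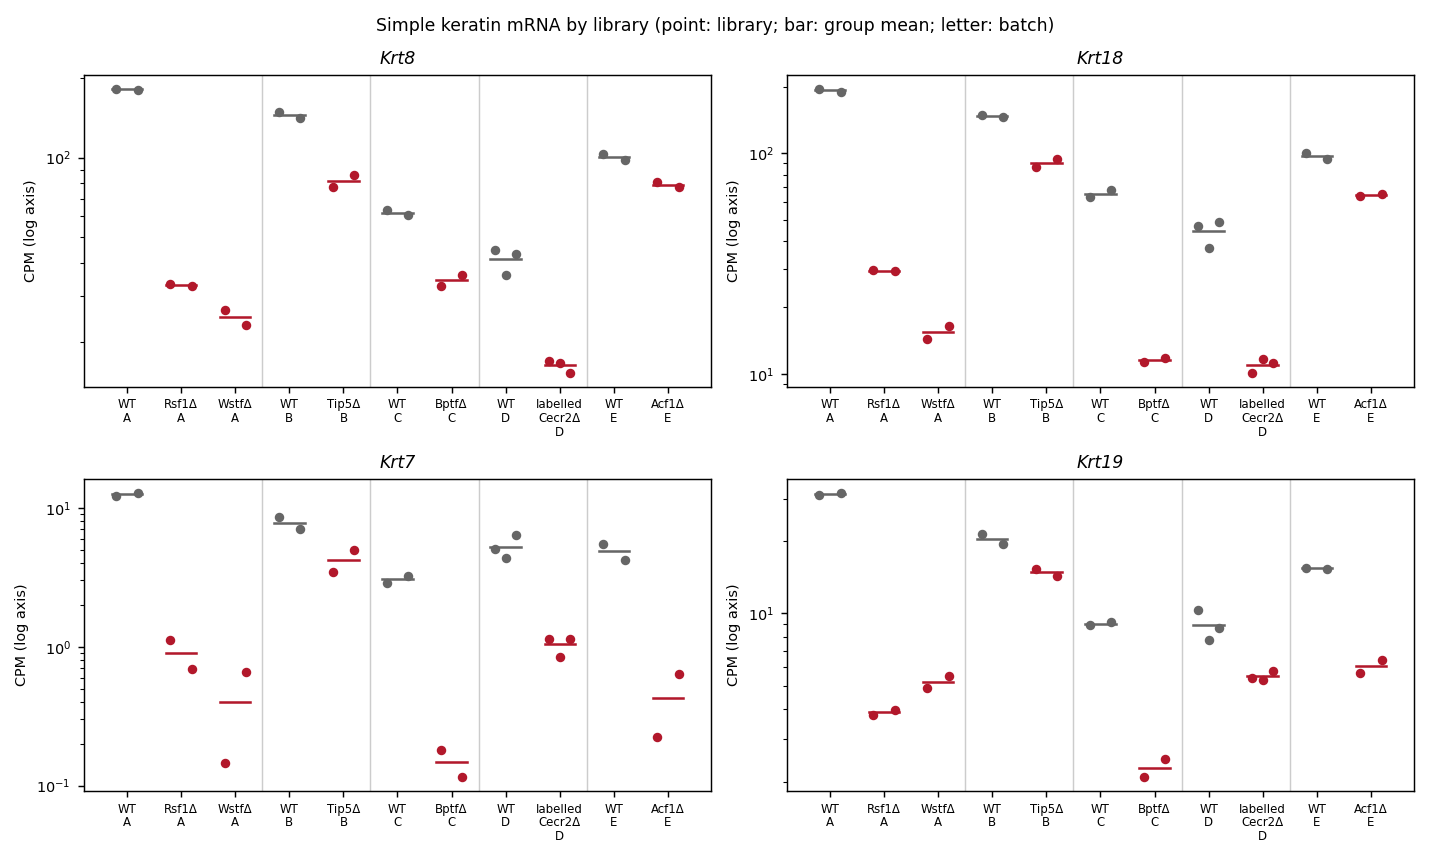
CPM (log axis) of Krt8, Krt18, Krt7 and Krt19 in each library, with grey points for WT, red points for deletion lines, bars for group means and grey lines between batches A to E. In each panel and batch the red points lie below the grey ones, and WT itself moves between batches, for Krt8 from 35.9 CPM in batch D to 183 CPM in batch A. With so few libraries a group, lying apart says little by itself: 7 of the 8 tested members did so in Tip5Δ, where 0 were DEGs.

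The ratio of both partners also differed from WT. Per kilobase of gene width, the ratio of Krt18 to Krt8 was between 1.32 and 1.54 in the 11 WT libraries, although the level of both genes varied over 5-fold among them. It was 0.448 and 0.469 in BptfΔ and 0.745 and 0.971 in WstfΔ, and the 3 libraries labelled Cecr2Δ were at 0.812 to 0.996. It was 1.08 and 1.15 in Acf1Δ, 1.21 and 1.22 in Rsf1Δ, and 1.49 and 1.53 in Tip5Δ. The ratio lay below that of every WT library in all lines but Tip5Δ, and it was chosen after the values were seen, so it has no test. Whether reads of processed pseudogene copies of these keratins were counted is not given in the sources used here.

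**Figure D3:**
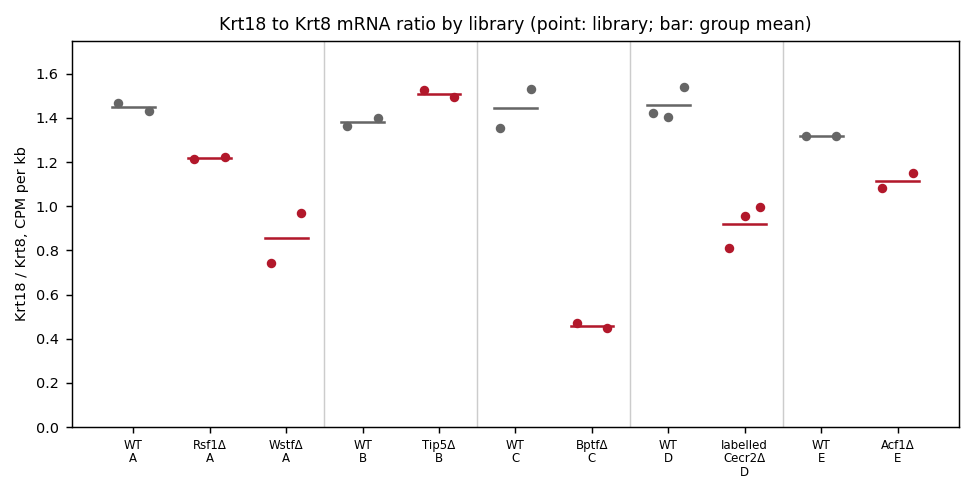
Ratio of Krt18 to Krt8 mRNA, each in CPM per kilobase, in every library, with grey points for WT, red points for deletion lines and bars for group means. The 11 WT libraries lie between 1.32 and 1.54, and the BptfΔ libraries lie lowest, at 0.448 and 0.469.

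Krt7, the type II keratin of glandular and trophoblast epithelium, was the least abundant of the 4 per kilobase in WT (1.04 ± 0.53 CPM per kb, SD, n = 11), against 8.78 ± 4.69 for Krt19, 51.2 ± 28.4 for Krt8 and 72.1 ± 40.3 for Krt18. It had the largest fall of the 4 in every line, in Tip5Δ by less than its SE. Krt7 was at 12.2 and 12.8 CPM in WT of batch A, at 1.12 and 0.692 in Rsf1Δ and at 0.144 and 0.659 in WstfΔ. It was at 5.49 and 4.22 in WT of batch E against 0.224 and 0.635 in Acf1Δ, and at 5.07, 4.33 and 6.35 in WT of batch D against 1.14, 0.847 and 1.14 in the libraries labelled Cecr2Δ. These groups were apart by more than 3-fold. The log2 fold change was -4.95 ± 0.36 (SE) in WstfΔ, -3.79 ± 0.27 in Rsf1Δ, -3.47 ± 0.33 in Acf1Δ and -2.33 ± 0.22 in the libraries labelled Cecr2Δ. WstfΔ held 2 and 9 counts of Krt7 and Acf1Δ 6 and 18, so single libraries moved the size of the fall, to -6.38 or -4.23 in WstfΔ without replicate 2 or 1 and to -4.41 in Acf1Δ without replicate 2. In BptfΔ, 5 counts over both libraries stood against 110 in WT of batch C, a ratio of 0.0484 (exact 95% interval 0.0154 to 0.116, for counting error only). In Tip5Δ, at 3.46 and 4.99 CPM against 8.62 and 7.02, it was -0.88 ± 0.22 (adjusted p = 0.00500, edgeR). It passed 2-fold without replicate 2 of Tip5Δ (-1.18) or of WT in batch B (-1.02), and it missed the threshold without replicate 1 of Tip5Δ (-0.65, adjusted p = 0.133, edgeR) or of WT in batch B (-0.73, adjusted p = 0.0856). It also missed it with a replicate block (adjusted p = 0.0176, edgeR) and with batch C left out (0.0106).

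Krt19, a small type I keratin, was at 30.9 and 31.7 CPM in WT of batch A, at 3.78 and 3.99 in Rsf1Δ and at 4.91 and 5.49 in WstfΔ. It was at 8.92 and 9.22 in WT of batch C against 2.10 and 2.48 in BptfΔ, and at 15.5 and 15.4 in WT of batch E against 5.67 and 6.42 in Acf1Δ. It fell by 3.01 ± 0.12 (SE) on the log2 scale in Rsf1Δ, by 2.59 ± 0.13 in WstfΔ, by 1.98 ± 0.17 in BptfΔ and by 1.35 ± 0.12 in Acf1Δ. In the libraries labelled Cecr2Δ (5.40, 5.28 and 5.75 CPM against 10.3, 7.74 and 8.70) it fell by 0.71 ± 0.097, and in Tip5Δ (15.4 and 14.3 CPM against 21.3 and 19.5) by 0.46 ± 0.10. The fall in Tip5Δ missed the threshold without replicate 1 of WT in batch B (-0.40, adjusted p = 0.0503, edgeR) or either Tip5Δ library (adjusted p 0.0129 and 0.0544). Acf1Δ thus had large falls of Krt7 and Krt19 beside small ones of Krt8 and Krt18. The tested non-keratin genes within 100 kb of Krt8 and Krt18, Eif4b, Tns2 and Spryd3, were DEGs in 0 lines, with log2 fold changes between -0.38 and 0.51, and none was tested beside Krt7 or Krt19. Of these, Eif4b rose in WstfΔ (0.51) and BptfΔ (0.29) and fell in Acf1Δ (-0.38), each under 2-fold. Of the keratins beside Krt19, Krt14 was a lower DEG in 4 lines and Krt13 rose in BptfΔ (1.26).

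Gata3 (gene ID 14462, chr2:9857078-9887953), a zinc finger factor of trophectoderm, had few counts, at most 69 in a library. It was at 2.27 and 2.07 CPM in WT of batch A, at 0.558 and 0.448 in Rsf1Δ and at 0.361 and 0.146 in WstfΔ. It was at 1.39, 1.79 and 2.28 in WT of batch D against 0.142, 0.350 and 0.167 in the libraries labelled Cecr2Δ, and at 1.77 and 1.89 in WT of batch E against 0.485 and 0.494 in Acf1Δ. In these 4 lines no deletion library reached its WT, and the same held in BptfΔ (0.599 and 0.347 CPM against 0.997 and 0.817). The log2 fold change was -3.07 ± 0.46 (SE) in WstfΔ, -2.10 ± 0.34 in Rsf1Δ, -1.89 ± 0.34 in Acf1Δ and -2.99 ± 0.30 in the libraries labelled Cecr2Δ. With 5 and 2 counts in WstfΔ, it was -3.85 there without replicate 1. It was -0.95 ± 0.46 in BptfΔ (adjusted p = 0.0837, edgeR) and -0.35 ± 0.32 in Tip5Δ (adjusted p = 0.513, edgeR), neither past the threshold.

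Cdx2 (gene ID 12591, chr5:147300900-147307249), the homeobox factor of the trophectoderm lineage, had few counts, 8 to 37 in WT libraries. BptfΔ had 1 and 2 counts against 11 and 22 in WT of batch C, a ratio of 0.0967 (exact 95% interval 0.0190 to 0.308, for counting error only), and was the 1 line in which Cdx2 passed the test (adjusted p = 0.000277, edgeR). Without replicate 2 of that WT it was at -2.64 and missed the threshold (adjusted p = 0.0126, edgeR). WstfΔ had 3 and 5 counts against 21 and 25 in WT of batch A (log2 fold change -1.70 ± 0.55, SE, adjusted p = 0.0135, edgeR), while Rsf1Δ had 26 and 26 (0.19 ± 0.37). Acf1Δ had 26 and 25 counts against 8 and 14 in WT of batch E (1.18 ± 0.42, adjusted p = 0.0267, edgeR), so that its libraries lay above WT without passing the threshold. The libraries labelled Cecr2Δ had 14, 10 and 19 counts against 26, 37 and 26 (-1.08 ± 0.32, adjusted p = 0.0127, edgeR), and Tip5Δ had 13 and 6 against 17 and 19. Elf5 (gene ID 13711, chr2:103412098-103450989) had 45 counts over all 24 libraries and at most 10 in one, so no change is given.

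Tfap2c (gene ID 21420, chr2:172545678-172558622) was abundant, at 12.6 ± 2.48 CPM per kb in WT (SD, n = 11), against 0.411 ± 0.13 for Gata3 and 0.353 ± 0.13 for Cdx2. It was at 47.9 and 50.8 CPM in WT of batch E against 14.2 and 15.4 in Acf1Δ, and at 43.8 and 42.9 in WT of batch C against 16.8 and 18.7 in BptfΔ. It was at 57.3 and 58.3 in WT of batch A, at 37.2 and 37.7 in Rsf1Δ and at 33.8 and 31.8 in WstfΔ. The libraries labelled Cecr2Δ moved the other way, at 53.0, 49.5 and 48.7 against 30.5, 35.4 and 38.0 in WT of batch D. Tfap2c fell by 1.74 ± 0.087 (SE) on the log2 scale in Acf1Δ, by 1.29 ± 0.093 in BptfΔ, by 0.82 ± 0.086 in WstfΔ and by 0.63 ± 0.080 in Rsf1Δ, and it rose by 0.54 ± 0.064 in the libraries labelled Cecr2Δ. In Tip5Δ it was at 44.3 and 43.1 against 53.8 and 52.0 CPM (-0.27 ± 0.080, adjusted p = 0.0181, edgeR).

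Tfap2c is also a gene of primordial germ cells, of which 6 other markers were tested. Lower DEGs were 2 each in Tip5Δ (2.63% of all tested genes), Acf1Δ (3.32%), WstfΔ (6.57%) and BptfΔ (8.59%), and 0 in Rsf1Δ (5.26%) and the libraries labelled Cecr2Δ (2.33%). Higher DEGs were 1 each in Acf1Δ (1.14%) and those labelled Cecr2Δ (0.784%), 2 in BptfΔ (5.25%) and 0 in the others. In Acf1Δ and BptfΔ markers changed in both directions. In Acf1Δ the regulators Prdm1 and Dppa3 fell by 2.17 and 2.15 on the log2 scale and Nanos3 rose by 1.33. In BptfΔ Dppa3 fell by 4.02 and Prdm1 by 1.15, and the receptor gene Kit and Prdm14 rose by 1.74 and 1.66. Prdm1 rose by 1.09 in the libraries labelled Cecr2Δ, Dppa3 (-3.14) and Nanos3 (-1.46) fell in WstfΔ, and Dppa3 (-1.13) and Kit (-1.04) fell in Tip5Δ. The summed level of the 6 was 111 to 115 CPM in Acf1Δ against 134 to 135 in WT, 282 to 289 in BptfΔ against 112 to 115, and 175 to 178 in the libraries labelled Cecr2Δ against 119 to 129. Their part in the Tfap2c values was not tested.

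The opposite changes of Tfap2c differed when tested in the same edgeR fit. Each pair was chosen because both changes passed with opposite signs, so a difference was near certain and is no added evidence. The same holds for such pairs of Tead4 below. The change of Tfap2c in the libraries labelled Cecr2Δ exceeded that in Acf1Δ by 2.28 ± 0.11 (log2, SE), a contrast that called 31.9% of all genes, and that in BptfΔ by 1.83 ± 0.11 (34.2%). It exceeded that in WstfΔ by 1.36 ± 0.11 (23.4%), and the change in Rsf1Δ minus that in the libraries labelled Cecr2Δ was -1.17 ± 0.10 (16.1%). WT of batch D, against which the rise was measured, held the lowest Tfap2c of the 5 WT groups.

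Tead4 (gene ID 21679, chr6:128227143-128300813), at 8.76 ± 2.24 CPM per kb in WT (SD, n = 11), rose in WstfΔ and BptfΔ. It was at 25.7 and 28.9 CPM in WT of batch A against 63.4 and 59.6 in WstfΔ, and at 22.4 and 20.9 in WT of batch C against 55.0 and 57.6 in BptfΔ. Rsf1Δ, measured against the same WT as WstfΔ, was at 15.3 and 15.0. In Acf1Δ it was at 36.8 and 26.1 against 38.5 and 43.9. The log2 fold change was 1.38 ± 0.11 (SE) in BptfΔ, 1.17 ± 0.11 in WstfΔ, -0.85 ± 0.12 in Rsf1Δ and -0.39 ± 0.10 in Acf1Δ. The fall in Acf1Δ missed the threshold without replicate 2 of that line (-0.16, adjusted p = 0.189, edgeR), without replicate 2 of WT in batch E (-0.30, adjusted p = 0.0550), with its own WT only (-0.37, adjusted p = 0.0432) and with a replicate block (-0.40, adjusted p = 0.0106). It was -0.21 ± 0.085 in the libraries labelled Cecr2Δ and 0.06 ± 0.10 in Tip5Δ, neither past the threshold. The change in Rsf1Δ was below that in BptfΔ (difference -2.23 ± 0.16, a contrast that called 30.7% of genes), and the change in Acf1Δ was below those in BptfΔ (-1.77 ± 0.15, 38.6%) and WstfΔ (-1.56 ± 0.15, 34.9%).

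**Figure D4:**
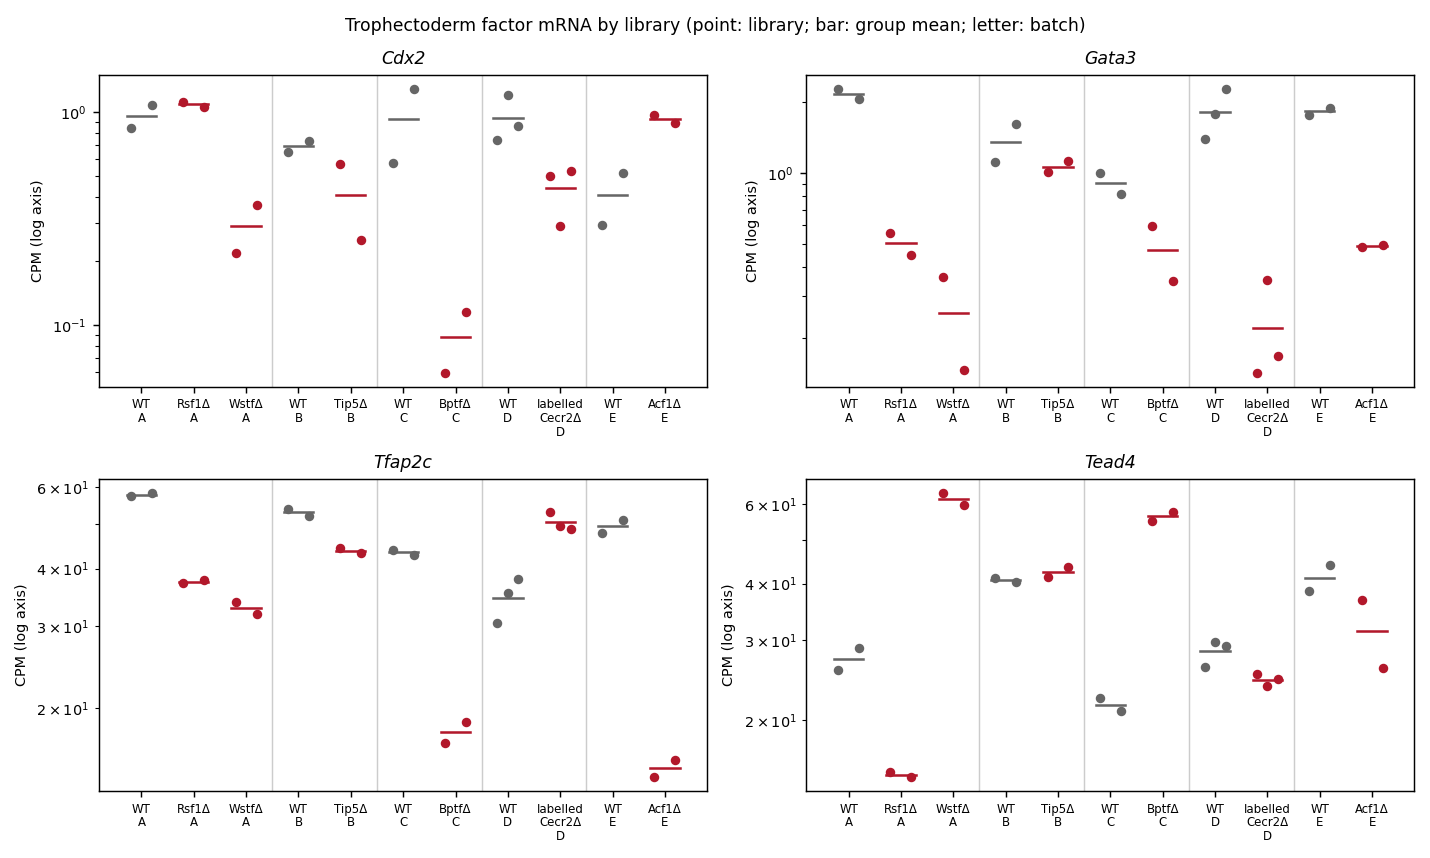
CPM (log axis) of Cdx2, Gata3, Tfap2c and Tead4 in each library, with grey points for WT, red points for deletion lines, bars for group means and grey lines between batches. Tead4 lies above WT in WstfΔ (63.4 and 59.6 CPM) and BptfΔ (55.0 and 57.6 CPM) and below it in Rsf1Δ, and Tfap2c lies above WT in the libraries labelled Cecr2Δ.

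Rsf1Δ and WstfΔ share their WT libraries, and their changes were set against each other directly. Of the 8 members 4 differed, where 33.3% of all genes did. Tead4 differed most (Rsf1Δ minus WstfΔ -2.02 ± 0.11, log2, SE), and Krt18 was lower in WstfΔ by a difference of 0.92 ± 0.11. Krt8 differed by 0.40 ± 0.099 (adjusted p = 0.00156, edgeR) and Cdx2 by 1.88 ± 0.54 (adjusted p = 0.00581, edgeR). These last differences were lost when libraries were left out: Krt8 missed the threshold without replicate 1 of Rsf1Δ (adjusted p = 0.0124, edgeR) or replicate 2 of WstfΔ (0.0511), and Cdx2 missed it without any 1 of these 4 deletion libraries (adjusted p 0.0183 to 0.0814, edgeR). Gata3 (0.97 ± 0.60), Tfap2c (0.19 ± 0.088), Krt7 (1.16 ± 0.58) and Krt19 (-0.42 ± 0.16) did not pass. Leaving out replicate 1 or 2 of WstfΔ moved the difference to 1.74 or 0.47 for Gata3 and to 0.45 or 2.60 for Krt7, none past the threshold.

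WT cells differed between batches in the same keratins. Over the 5 WT groups, 4 of the 8 tested members differed by more than 2-fold with an adjusted p under 0.01 (edgeR), as did 22.7% of all genes, and these were Krt8 (a 4.36-fold range of group means), Krt18 (4.33-fold), Krt7 (4.03-fold) and Krt19 (3.47-fold). Tead4 (1.87-fold) and Tfap2c (1.66-fold) passed the test with a smaller range, while Gata3 and Cdx2 did not pass. Across the 11 WT libraries, which share batches, the log2 CPM of Krt8 had a Pearson's r of 0.996 with Krt18, 0.960 with Krt19, 0.940 with Tfap2c, 0.717 with Krt7, 0.396 with Tead4, 0.207 with Gata3 and -0.229 with Cdx2, as a description. For all 24 libraries, the mean of WT of the same batch was also subtracted from log2 CPM. Krt8 then had an r of 0.936 with Krt18, 0.866 with Krt19, 0.809 with Krt7 and 0.804 with Gata3. It was 0.378 with Cdx2, 0.221 with Tfap2c and -0.164 with Tead4. The batch A value of each keratin was the highest, so a line compared with WT of another batch would have another fold change.

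The counts in the following lists stand against the shares of all tested genes given above, 2.33% to 8.59% for lower DEGs in the 6 lines, and for higher DEGs 3.87% in WstfΔ, 5.25% in BptfΔ and 0.0829% to 1.14% in the other lines. Of 14 other trophectoderm and trophoblast stem cell regulators, all tested, 7 were lower DEGs in WstfΔ, 4 in BptfΔ, 4 in the libraries labelled Cecr2Δ, 3 each in Rsf1Δ and Acf1Δ and 2 in Tip5Δ, and 3 were higher in WstfΔ and 1 in BptfΔ, where 1 of 14 is near the share of all genes. Id2, an inhibitor of basic helix-loop-helix factors, was among those that fell in 5 lines (from -1.04 in BptfΔ to -1.83 in WstfΔ on the log2 scale), and it rose in Tip5Δ (0.68). Sox21 rose in BptfΔ (3.09) and WstfΔ (1.83) and fell in Acf1Δ (-0.73) and those labelled Cecr2Δ (-1.18). Fgfr2, the receptor through which trophoblast stem cells respond to Fgf4, fell by 1.92 in BptfΔ, by 1.66 in WstfΔ and by 1.18 in Rsf1Δ. It also fell, by less than 2-fold, in Acf1Δ (-0.79) and the libraries labelled Cecr2Δ (-0.39). Of 15 Hippo and Notch components 3 were lower in Rsf1Δ, 1 each in the libraries labelled Cecr2Δ, WstfΔ and BptfΔ and 0 in the others, and 1 of 15 is near the share of all genes in WstfΔ and BptfΔ. The Yap-binding scaffold Amot fell by 4.29 in BptfΔ and by 1.26 in Rsf1Δ. Smaller falls of Amot, under 2-fold, were in Tip5Δ (-0.91), WstfΔ (-0.52) and the libraries labelled Cecr2Δ (-0.37).

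Of 10 trophoblast products 5 were tested. Of these 4 were lower DEGs in Rsf1Δ, the libraries labelled Cecr2Δ and BptfΔ, 3 in WstfΔ, 2 in Acf1Δ and 1 in Tip5Δ. The X-linked homeobox gene Rhox6 was a lower DEG in every line. Its log2 fold change was -3.66 in WstfΔ, -3.44 in BptfΔ and -3.06 in Rsf1Δ. It was -1.75 in the libraries labelled Cecr2Δ, -1.50 in Tip5Δ and -1.31 in Acf1Δ. The placental hormone genes Prl3d1 and Prl3b1 and the syncytin Synb, which define differentiated trophoblast, had at most 2 counts in any library, Prl2c2 had at most 4 and Tpbpa at most 13. The tested syncytin Syna had at most 21 counts and was a DEG in 0 lines. Of 12 tested other keratins 5 were lower in Acf1Δ, 4 each in WstfΔ and BptfΔ, 3 each in Rsf1Δ and the libraries labelled Cecr2Δ and 2 in Tip5Δ, and 1 each was higher in Acf1Δ, WstfΔ and BptfΔ. Krt17, a keratin of stratified epithelium, rose by 1.18 in WstfΔ, by 0.70 in BptfΔ and by 0.47 in Tip5Δ, and fell by 1.86 in Rsf1Δ and by 1.74 in Acf1Δ. Of 6 other intermediate filament genes 2 were lower in WstfΔ, 0 in Tip5Δ and 1 in each other line, and 1 was higher in WstfΔ. Among 20 tested genes of keratin anchors and junctions, 2 were lower in Rsf1Δ, 3 in Acf1Δ, 5 in BptfΔ and 0 in the other lines, while 1 was higher in Rsf1Δ and 2 each in WstfΔ and BptfΔ. The desmosomal plaque gene Dsp fell by 1.58 in Acf1Δ and by 1.34 in Rsf1Δ. Falls of Dsp under 2-fold were seen in WstfΔ (-0.79), BptfΔ (-0.77) and the libraries labelled Cecr2Δ (-0.53).

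Markers of extraembryonic endoderm, which also makes simple keratins, were counted beside the keratins. All 7 parietal endoderm markers (such as Lamb1 and Col4a1, of basement membrane) were lower DEGs in Rsf1Δ, Tip5Δ, WstfΔ and those labelled Cecr2Δ, 6 of them in BptfΔ and 0 in Acf1Δ. Their summed level was 1396 to 1447 CPM in Tip5Δ against 6478 to 6569 in WT of batch B, and 3880 to 4831 in Acf1Δ against 3965 to 4505 in WT of batch E. It was 1738 to 2092 CPM in Rsf1Δ and WstfΔ against 6271 to 6919, 827 to 854 in BptfΔ against 3229 to 3334, and 560 to 573 in the libraries labelled Cecr2Δ against 1902 to 1953. Of the 9 tested primitive and visceral endoderm markers, 9 were lower DEGs in Tip5Δ and in BptfΔ, 8 in Rsf1Δ, 7 in the libraries labelled Cecr2Δ, 5 in WstfΔ and 0 in Acf1Δ. Their summed level ran from 16.0 to 16.1 CPM in BptfΔ against 240 to 272 in WT of batch C, and from 313 to 371 CPM in Acf1Δ against 290 to 301. Afp and Ttr, of visceral endoderm, had at most 7 counts in any library.

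The median log2 fold change of the parietal endoderm markers was -1.98 in Rsf1Δ, -2.31 in WstfΔ, -2.68 in BptfΔ and -2.67 in those labelled Cecr2Δ, beside medians of the 4 keratins of -2.86, -3.26, -2.24 and -1.67. In these 4 lines both sets were thus below WT. Tip5Δ had -2.46 for the markers and -0.77 for the keratins, and Acf1Δ had -0.06 and -0.97. The part of endoderm cells in the keratin values was not tested. Of 6 embryonic stem cell markers 0 were lower DEGs in any line, and 1 was higher in WstfΔ (Klf4, 1.30) and 2 in BptfΔ (Esrrb, 1.19, and Klf4, 1.14). Of 4 tested fibroblast markers 3 were lower DEGs in all lines but those libraries labelled Cecr2Δ, where 0 were, and 1 was higher in WstfΔ, with summed levels of at most 31.7 CPM in any group.

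**Figure D5:**
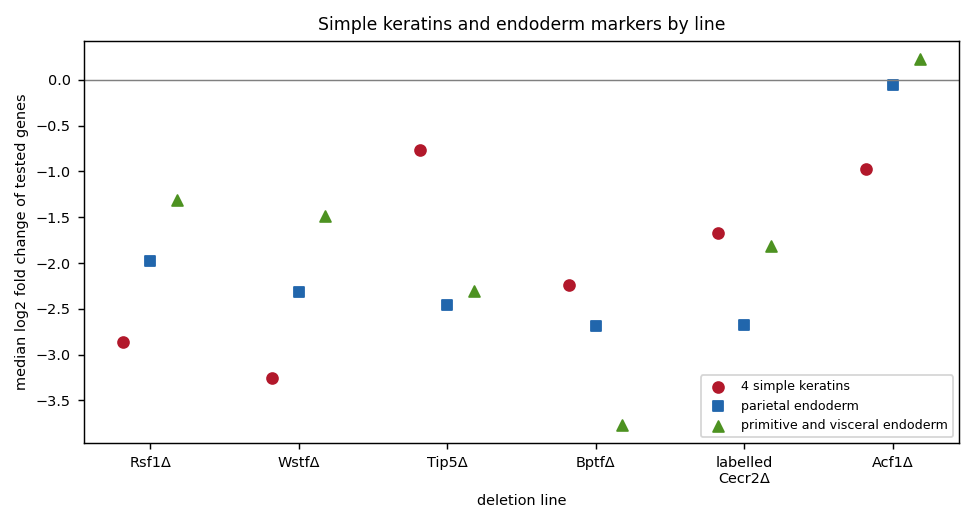
Median log2 fold change against WT of the same batch for the 4 simple keratins (circles), the 7 parietal endoderm markers (squares) and the 9 tested primitive and visceral endoderm markers (triangles) in each deletion line. In 4 lines all 3 medians lie between -3.77 and -1.31, Tip5Δ has endoderm medians of -2.46 and -2.31 beside -0.77 for the keratins, and Acf1Δ has -0.06 and 0.23 beside -0.97.

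The genes most like each member across the 24 libraries were found among 12222 expressed genes. For this the mean of the WT libraries of the same batch was subtracted from log2 CPM. Krt18 was closest to the MAP kinase phosphatase gene Dusp4 (r = 0.986), Krt8 to Procr (0.975), Krt7 to Glod5 (0.966) and Krt19 to Gstm2 (0.959). Among the factors, Tead4 was closest to Laptm5 (0.984), Tfap2c to Fbxo15 (0.946), Cdx2 to Elac2 (0.927) and Gata3 to Vgll3 (0.922). These are descriptions over libraries that share WT groups. Among pairs of members themselves, r ran from -0.752 for Cdx2 and Tead4 to 0.936 for Krt8 and Krt18.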

How the data were processed

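RNA-seq covered 24 mESC libraries. Reads had been aligned to mm10 by the authors, who deposited 1 table of raw, unnormalized counts for 24594 knownGene genes, with a gene width in bases. How multi-mapping reads and strand were treated is not given in the sources used here. IDs were joined to RefSeq symbols (24570 matched). With edgeR 4.0.16 in R 4.3.3, genes were filtered by filterByExpr (15682 left), scaled by TMM and fitted with the quasi-likelihood model (legacy form) with terms for batch and line. P-values were adjusted by the Benjamini-Hochberg method over all genes tested. DEGs had an adjusted p under 0.01 and an absolute log2 fold change over 1. CPM are counts scaled to a library total of 1 M (mega). The SE is the absolute log2 fold change over the square root of F. P-values measure the spread between libraries of 1 clone per line.

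The members, the gene lists and the tests were chosen with earlier results of these data known. Genes named are the members, the targeted genes, and per list and line at most the 3 DEGs with the smallest adjusted p and a mean of at least 10 counts, and for each member the most correlated genes with a mean log2 CPM of at least 1. The marker genes named as absent or nearly so, the neighbours of the keratins, Rpph1, and Prdm1 in BptfΔ were named outside this rule, as were values of a named gene in further lines. Alternatives were RLE factors, library size only, other filters, DESeq2 1.42.0, the newer quasi-likelihood fit, each line with its own WT only, no batch term, a replicate block, no minimum fold change and leaving out each library. The batch C exclusion and the alternatives for differences between lines were chosen after seeing the data. Replicate libraries were compared for duplicates, and none agreed within sampling noise. The steps were tested on simulated data.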

Additional observations from a re-analysis of the deposited data

Results flagged for a closer look

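In 8 pairs of lines a member changed in opposite directions, each past an adjusted p of 0.01. The difference itself passed edgeR's test, which the choice of such pairs made near certain. For Tfap2c the change in Rsf1Δ minus that in the libraries labelled Cecr2Δ was -1.17 on the log2 scale. The change in the libraries labelled Cecr2Δ minus that in Acf1Δ was 2.28, minus that in WstfΔ 1.36, and minus that in BptfΔ 1.83. For Tead4 the change in Rsf1Δ minus that in WstfΔ was -2.02, and minus that in BptfΔ -2.23. The change of Tead4 in Acf1Δ minus that in WstfΔ was -1.56, and minus that in BptfΔ -1.77. The fall of Tead4 in Acf1Δ was itself lost without replicate 2 of that line (-0.16, adjusted p = 0.189, edgeR) or of its WT (-0.30, adjusted p = 0.0550). Other than Rsf1Δ and WstfΔ, the lines of each pair were measured against WT of different batches.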

How the results depend on the processing

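Without a batch term, which compares each line with WT of all batches, 1 member was called in Rsf1Δ, 2 in Acf1Δ and 3 in WstfΔ. The DEGs among all genes were fewer in these lines too, 102 lower and 32 higher in Rsf1Δ (825 and 102 with the term), 139 and 14 in Acf1Δ (520 and 178) and 297 and 203 in WstfΔ (1031 and 607), while lower DEGs were more in the libraries labelled Cecr2Δ (531, 365 with the term) and BptfΔ (1677 and 1347). Krt19 in the former (-1.57) and Gata3 in BptfΔ (-1.79) became DEGs, and Tead4 in WstfΔ (0.96) and BptfΔ (0.84) was under 2-fold. In that fit the differences between lines that missed the threshold were Tfap2c in Rsf1Δ minus the libraries labelled Cecr2Δ (-0.43) and in the latter minus WstfΔ (0.62), Tead4 in Acf1Δ minus WstfΔ (-0.97) and minus BptfΔ (-0.84), and Cdx2 (1.88), Krt8 (0.40) and Krt18 (0.92) in Rsf1Δ minus WstfΔ. With no minimum fold change, 4 members were called in Tip5Δ and 7 in Acf1Δ. Leaving out 1 library gave 0 to 1 members in Tip5Δ, and for Rsf1Δ minus WstfΔ 1.56 to 2.30 for Cdx2 and 0.31 to 0.50 for Krt8. Same-numbered libraries did not deviate together (r from -0.07 to 0.05, 8 distinct values, since both libraries of a group of 2 give the same r). With the replicate block, 5, 0, 4, 4, 6 and 6 members were called in Rsf1Δ, Tip5Δ, the libraries labelled Cecr2Δ, Acf1Δ, WstfΔ and BptfΔ, as without it, and Cdx2 in Rsf1Δ minus WstfΔ was 1.89 (adjusted p = 0.0109, edgeR).

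Of 38 rises and falls by adjusted p alone, 20 missed the threshold without a batch term, the 4 keratins in Tip5Δ among them (adjusted p 0.425 to 0.870, edgeR). Of the 20, Krt19 (-1.43) and Gata3 (-1.74) in Acf1Δ were near their values with the term, and Krt8 (-1.61), Krt18 (-1.82) and Krt19 (-2.07) in Rsf1Δ and Krt8 (-2.01) and Krt19 (-1.65) in WstfΔ were smaller falls by over 1.5 times. Krt8 in BptfΔ, also among the 20, was a larger fall (-1.55, against -0.85 with the term). Apart from that fit, 5 did so under at least 1 alternative: Krt7 and Krt19 in Tip5Δ, Krt8 and Tead4 in Acf1Δ and Cdx2 in BptfΔ, with the values given beside them. By the DEG threshold, of 680 values of single members under the alternatives, 662 kept direction and side, 11 missed it, 7 passed it newly and 0 reversed. Cdx2 in the libraries labelled Cecr2Δ passed with no filter (adjusted p = 0.00838, edgeR), with the newer fit (0.00782) and without replicate 1 of WT in batch D (0.00996). Scaling by library size or RLE factors moved the median of all genes to at most 0.05 from 0. Cdx2 had 1 to 37 counts per library.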
